A study of Mus musculus with 98 samples.

Results

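The genes described here encode 10 subunits of the ionotropic glutamate receptors that carry most fast excitatory transmission in the hippocampus: the AMPA receptor genes Gria1, Gria2, Gria3 and Gria4 and the NMDA receptor genes Grin1, Grin2a, Grin2b, Grin2c, Grin2d and Grin3a. They were taken by symbol from that list. No measured value entered this rule, but the list was chosen with earlier results of these data known. All 10 were found in each of the 6 deposited count tables, which hold 25239 gene rows for the neurons given a virus and 55367 gene rows for the neurons without virus and the mice. All 10 passed the filter on low counts in every comparison.

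The series compared upACSS2, a PhP.eB virus that raises ACSS2 (the enzyme that makes acetyl-CoA from acetate), with an empty PhP.eB vector, by RNA sequencing of 98 libraries in 22 groups. Primary hippocampal neurons from CD1 mouse embryos took the virus on day 5 for 48 hours and then, after a wash on day 7, a tau preparation named hAD-tau ("tau" from here on) or PBS. They gave 8 groups of 3 libraries on day 9 or day 21 (upACSS2 or vector, tau or PBS), 4 further groups of 3 called stimulated, whose kind and duration of stimulus the labels do not give, and 4 tau and 3 PBS libraries of day 21 neurons with no virus. Aged male C57BL6 mice of 22 to 23 months (12 upACSS2, 12 vector, whole hippocampus) were injected behind the eye at 21 to 22 months and taken 2 months later, 30 minutes after remote context recall, and male C57BL6 mice of 10 months (6 upACSS2, 5 vector, dorsal hippocampus) were taken 2 weeks after injection and 30 minutes after fear conditioning. Male PS19 mice, which carry a mutant human tau transgene under the mouse prion promoter, were injected at 2.5 months and taken 1 or 6 months later, at 3.5 or 8.5 to 9 months of age, 30 minutes after a recall test at 24 hours (5 upACSS2 and 5 vector mice at each time). Groups follow the sample titles, because the treatment entry goes against the title for the vector tau and upACSS2 PBS neurons without stimulation, for the PS19 upACSS2 mice at 1 month and for 1 PS19 vector mouse at 1 month. By the tissue entry, whole hippocampus was taken from the PS19 upACSS2 mice at 1 month and dorsal hippocampus from all other PS19 mice, and virus and dissection cannot be told apart at that time. Time and dissection likewise cannot be told apart in the PS19 upACSS2 mice, which also bears on the test of virus by time. The labels do not say that the neuron libraries of a group came from separate cultures, and p-values for them measure only the spread between these libraries.

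AMPA receptors are tetramers of the GluA subunits made from Gria1 to Gria4, and their GluA2 subunit, once its RNA is edited, keeps the channel nearly closed to calcium. NMDA receptors need the GluN1 subunit made from Grin1, joined by GluN2 subunits (Grin2a to Grin2d) or GluN3 subunits (Grin3a). Those with GluN2 pass current mainly when glutamate binds while the membrane is depolarised, and admit calcium that starts lasting changes of synaptic strength. In forebrain neurons GluN2B is the main GluN2 subunit before birth and GluN2A is added as synapses mature, and this exchange shortens the receptor's current. GluN2D is known mainly from early development and interneurons, GluN2C from the cerebellum and from glia, and GluN3A from young, still changing synapses.

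In the mouse genome (GRCm38, GENCODE vM21) the members lie apart, on 9 chromosomes. The AMPA receptor genes are Gria1 at chr11:57011387-57330244, Gria2 at chr3:80681450-80802835, Gria3 at chrX:41400854-41678601 and Gria4 at chr9:4417896-4796234. The NMDA receptor genes are Grin1 at chr2:25291181-25319187, Grin2a at chr16:9567898-9995560, Grin2b at chr6:135713233-136173511, Grin2c at chr11:115249169-115267243, Grin2d at chr7:45831883-45878378 and Grin3a at chr4:49661611-49845744. Grin1os overlaps Grin1 on the other strand and was at 0 to 2.58 CPM over all libraries.

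RefSeq promoter windows were found for 5 of the 10 genes (GRCm38.p6), and those of Grin1 and Gria4 are shown because these were the 2 members called higher in upACSS2 than in vector PBS neurons on day 9. Each sequence gives the 250 bases before the annotated start, 5′ to 3′ on the minus strand, which both genes use. Capitals mark the E box CACGTG.
Grin1, chr2:25319188-25319437: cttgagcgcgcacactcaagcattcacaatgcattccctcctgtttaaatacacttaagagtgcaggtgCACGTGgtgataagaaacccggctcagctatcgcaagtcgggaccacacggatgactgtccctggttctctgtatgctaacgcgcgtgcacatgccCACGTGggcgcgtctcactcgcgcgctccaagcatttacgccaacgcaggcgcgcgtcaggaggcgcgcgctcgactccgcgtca
Gria4, chr9:4796235-4796484: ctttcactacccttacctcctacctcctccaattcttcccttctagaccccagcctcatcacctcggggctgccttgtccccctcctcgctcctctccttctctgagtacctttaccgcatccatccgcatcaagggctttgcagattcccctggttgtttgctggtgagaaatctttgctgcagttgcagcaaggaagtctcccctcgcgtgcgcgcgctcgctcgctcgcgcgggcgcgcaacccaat
The Grin1 window held 2 E boxes and the Gria4 window none, where 6.02% of all 32851 RefSeq promoter windows of the same length held at least 1. Neither window held the GC box GGGCGG (32.7% of all windows), the cyclic AMP response element TGACGTCA (1.55%) or TTCAGCACC, the left arm of the RE1 silencer site (0.301%), each searched on both strands. Both windows were 58.8% G and C, with 27 CpG in Grin1 and 16 in Gria4, against medians of 52.4% and 6 over all windows. A match of letters is a description of the sequence and says nothing on whether a factor binds there.

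Library totals ran from 5075099 to 39985460 counts. Acss2 was at 1488 to 5462 CPM (a gene's counts scaled to the library size) in every upACSS2 neuron library and at 33.5 to 94.6 CPM in every vector and no-virus neuron library. In mice the groups lay closer: Acss2 medians were 54.9 CPM against 48.1 CPM in aged mice, with overlap, 57.5 CPM against 43.0 CPM at 10 months, without overlap, 318 CPM against 52.8 CPM in PS19 mice at 1 month and 101 CPM against 46.5 CPM at 6 months, both with overlap. Neuron markers summed to 1830 CPM or more in all libraries. The cultures also held glia, whose markers differed between libraries and stand beside the results they accompany. Endothelial markers summed to 1.15 CPM or less in the day 9 and day 21 neurons with virus and without stimulation, and Cldn5 among them was listed at 0 in all libraries of 5 of those 8 groups. In a bulk library, fewer cells of a type and less RNA per cell cannot be told apart.

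Per length of exon, the same 3 genes led in every group. Gria1 ranked first of the 10 in all 22 groups by CPM per kilobase of merged exon, at group means of 45.1 to 232 CPM per kilobase, Gria2 ranked behind it in all 22 at 34.9 to 68.1, and Grin1, the subunit every NMDA receptor needs, came next in all 22 at 15.4 to 56.4. With the length of the longest transcript in place of the merged exons, Gria1 ranked between 1 and 2, Gria2 between 1 and 3 and Grin1 between 2 and 3. Grin2c, Grin2d and Grin3a held the 3 lowest ranks in 16 of 22 groups and ranked between 6 and 10 over all of them, with group means of 1.46 to 10.9, 1.37 to 4.0 and 2.11 to 6.82 CPM per kilobase of merged exon. In the neurons without virus Grin2a lay below Grin2c, with tau also Grin2b, and in 10-month mice and PS19 mice at 1 month Gria4 did. The order in the middle differed between cultures and tissue. In vector PBS neurons on day 9 Grin2b stood at 25.1 ± 0.84 CPM per kilobase (SD, n = 3), beside Grin1 at 25.3 ± 0.19, and on day 21 it stood at 9.48 ± 2.6 beside Grin2a at 7.12 ± 2.4. In aged vector mice Grin2a, at 21.6 ± 3.5 CPM per kilobase (SD, n = 12), and Grin2b, at 21.0 ± 4.0, did not differ beyond their spread. These levels come from tables that were counted and scaled separately, and the annotation used for each is not given in the sources used here.

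**Figure D1:**
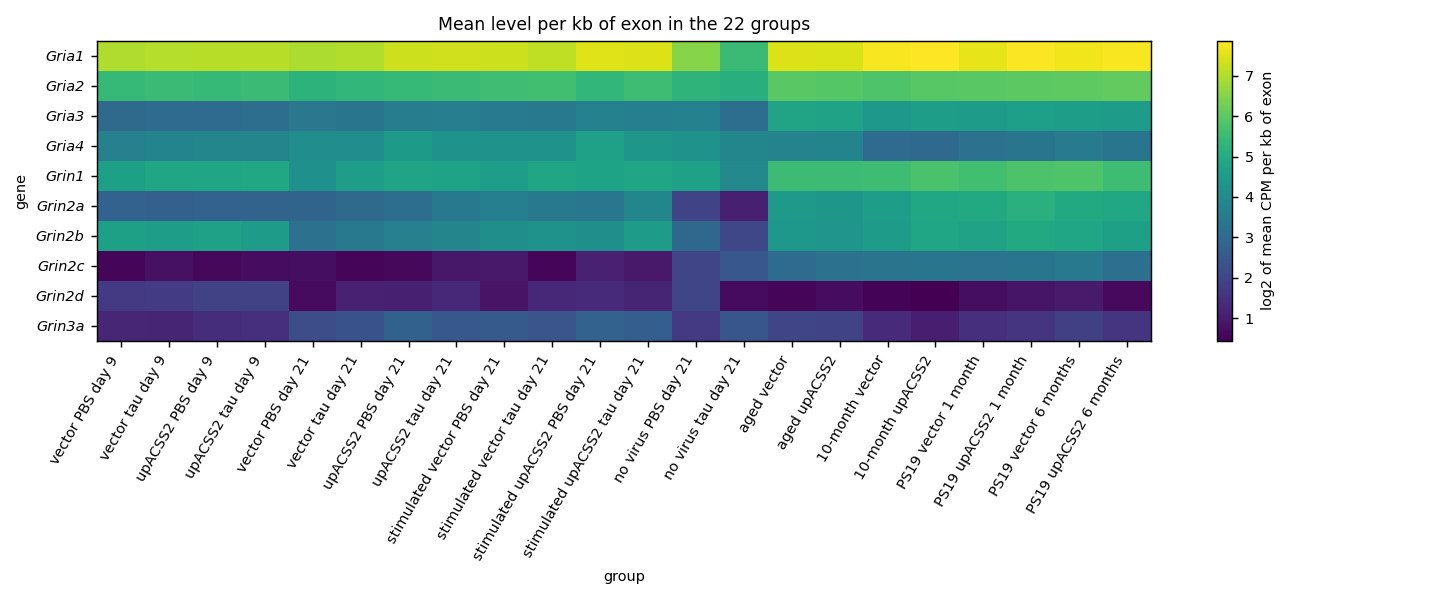
Mean level of each subunit gene (rows) in each of the 22 groups (columns), as log2 of CPM per kilobase of merged exon, shown by colour. Gria1 is the highest row in every column, Gria2 and Grin1 follow, and Grin2c, Grin2d and Grin3a hold the 3 lowest levels in 16 of 22 columns.

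Between day 9 and day 21 in culture the largest changes among the members were in NMDA receptor genes. Grin2b and Grin2d fell, Grin3a rose more than 2-fold, Gria3 and Gria4 rose by about 1.35-fold, and these 5 genes did not overlap between the 12 libraries of day 9 and the 12 of day 21 (all with virus and without stimulation). The share of all genes without such overlap was not counted over the arms together. Within arms, 6 members (vector PBS), 5 (vector tau), 6 (upACSS2 PBS) and 7 (upACSS2 tau) did not overlap. These stand beside 58.3%, 59.8%, 64.5% and 68.4% of all genes. Averaged over the 4 arms (vector or upACSS2, PBS or tau), 7 of 10 members passed the edgeR quasi-likelihood test with Benjamini-Hochberg adjustment at 0.05, of which 4 were higher and 3 lower. The background was 76.4% of 14863 genes tested (40.6% higher, 35.8% lower), so the share of members is near that of all genes. The members' median log2 fold change was 0.08 and that of all genes was 0.04. The sizes of the largest member changes lay toward the upper end of all genes: 16.3% of genes had a larger absolute log2 fold change than Grin3a, 16.7% than Grin2b and 26.5% than Grin2d.

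Other cell types moved with culture day. The summed astrocyte markers ran from 2273 to 2834 CPM on day 9 and from 3654 to 20397 CPM on day 21, oligodendrocyte precursor markers from 157 to 297 and from 809 to 1650 CPM, and inhibitory neuron markers from 471 to 581 and from 886 to 1513 CPM, all without overlap. The neuron markers summed to 5465 to 6182 CPM on day 9 and to 2991 to 4683 CPM on day 21, also without overlap, and the excitatory neuron markers to 2513 to 2958 and 1790 to 4474 CPM, with overlap. Among the markers tested, 6 of 7 for astrocytes, 4 of 4 for oligodendrocyte precursors and 3 of 3 for inhibitory neurons were called higher, and 3 of 5 for neurons were higher and 2 lower. The part of these shifts in the changes of the receptor genes was not tested.

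**Figure D2:**
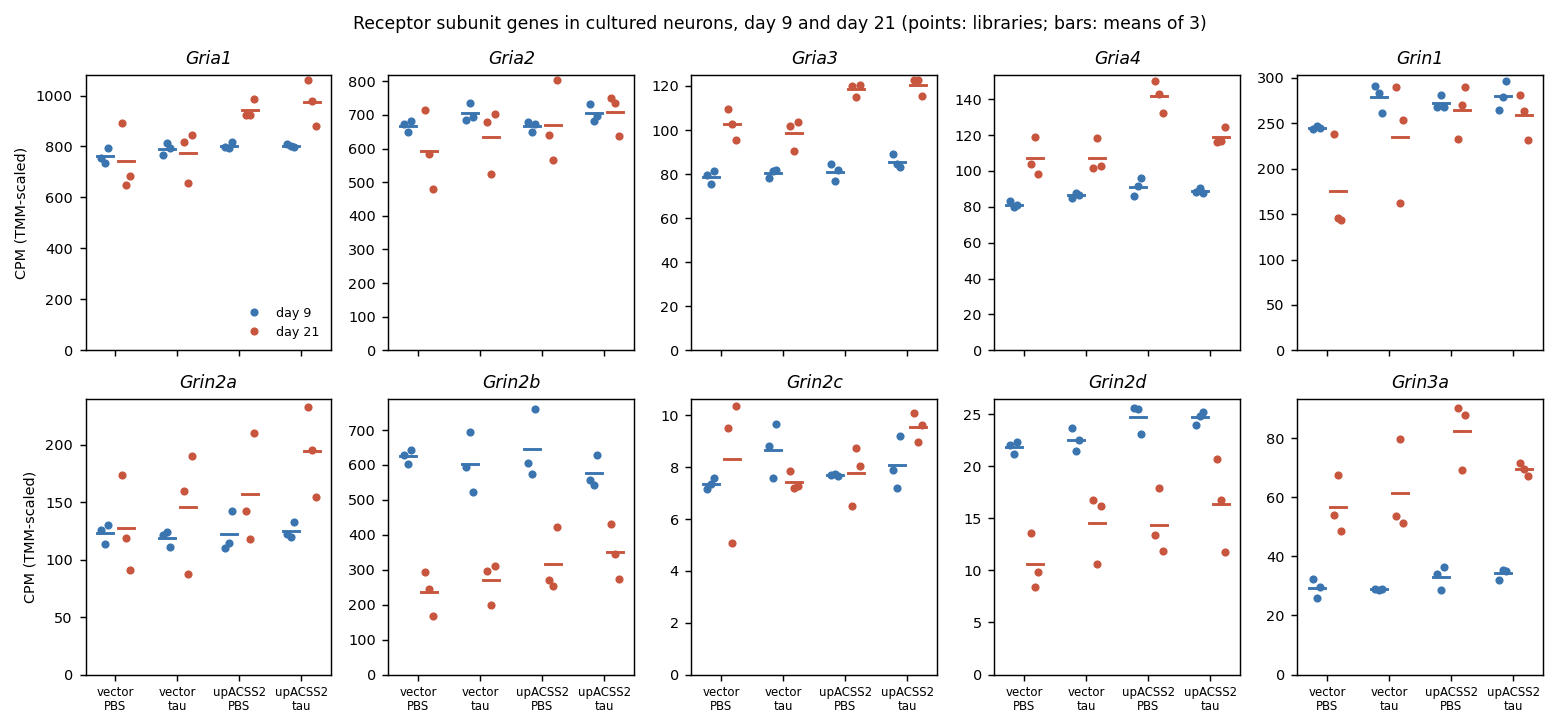
CPM of each of the 10 subunit genes in the 24 libraries with virus and without stimulation, on day 9 and day 21 in culture. There is 1 panel per gene and 1 point per library, placed by arm and coloured by day. The 2 days separate for Gria3, Gria4, Grin2b, Grin2d and Grin3a and overlap for the other 5 genes.

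Among the AMPA receptor genes, Gria3 and Gria4 rose and Gria1 and Gria2 did not pass the test over the 4 arms. Gria3 was at 79.5, 75.7 and 81.2 CPM in vector PBS and 78.3, 81.5 and 81.8 CPM in vector tau neurons on day 9, and at 109.8, 103 and 95.3 CPM and 102, 90.5 and 104 CPM on day 21. With upACSS2 it was at 84.5, 76.7 and 81.9 CPM (PBS) and 89.1, 84.4 and 83.0 CPM (tau) on day 9, and at 120.1, 115 and 120.4 CPM and 123, 123 and 115 CPM on day 21. All 12 day 21 libraries lay above all 12 of day 9, and the vector tau library at 90.5 CPM came closest to them. Gria3 averaged 110.0 ± 11.1 CPM on day 21 against 81.5 ± 3.67 CPM on day 9 (SD, n = 12 and 12), a log2 fold change of 0.43 ± 0.03 (SE), 1.35-fold, adjusted p = 2.11e-10. It was called in each arm, at log2 fold changes of 0.38 (vector PBS), 0.29 (vector tau), 0.55 (upACSS2 PBS) and 0.49 (upACSS2 tau).

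Gria4, whose subunit is known for fast-gating AMPA receptors of interneurons and early development, was at 83.0, 79.7 and 80.7 CPM in vector PBS and 85.1, 87.9 and 86.8 CPM in vector tau neurons on day 9, and at 104, 119 and 98.5 CPM and 101, 118 and 103 CPM on day 21. In upACSS2 neurons its levels were 86.0, 91.6 and 95.8 CPM (PBS) and 88.4, 90.5 and 87.7 CPM (tau) on day 9, and 150.2, 143 and 132 CPM and 116, 117 and 124 CPM on day 21. Again no day 21 library reached down to day 9, and the upACSS2 PBS neurons of day 21 were the highest of the 8 groups. The means were 119 ± 16.5 CPM on day 21 against 86.9 ± 4.55 CPM on day 9 (SD, n = 12 and 12), a log2 fold change of 0.44 ± 0.04 (SE), 1.36-fold, adjusted p = 8.12e-10. The gene was called in all 4 arms, at log2 fold changes of 0.31 to 0.64.

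Gria1, the most abundant member, was at 754, 733 and 795 CPM in vector PBS and 766, 812 and 795 CPM in vector tau neurons on day 9, and at 893, 649.8 and 682 CPM and 818, 655 and 844 CPM on day 21. The upACSS2 neurons had 797, 794 and 817 CPM (PBS) and 808, 801 and 796 CPM (tau) on day 9, and 922, 924 and 985 CPM and 1062, 979 and 881 CPM on day 21. All 6 upACSS2 libraries of day 21 lay above the highest library of day 9, while the vector libraries of day 21 lay on both sides of it. Over the 4 arms the log2 fold change was 0.11 ± 0.05 (SE), which did not pass (adjusted p = 0.0631). Among the single arms only upACSS2 tau was called, at 0.28 (adjusted p = 0.0307), and this call was lost in 5 of 6 fits that left out 1 library, all except that without upACSS2 tau day 21 replicate 3, at adjusted p-values of up to 0.137. Without vector PBS day 21 replicate 3, whose astrocyte markers summed to 20397 CPM against 8231 and 4661 CPM in the other 2 libraries of its group, Gria1 over the 4 arms passed at the same 0.11 (adjusted p = 0.0498), and the 7 members called with all libraries were called there too. Gria2 ran from 648 to 736 CPM on day 9 and from 478 to 804 CPM on day 21, with medians of 683 and 659.9 CPM. Its log2 fold change was -0.08 ± 0.07 (SE, adjusted p = 0.294), and no arm was called.

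Grin1 fell in the average over arms, with overlap between the days. It was at 243, 247 and 245 CPM in vector PBS and 292, 283 and 261 CPM in vector tau neurons on day 9, and at 238, 146 and 143 CPM and 289.6, 162 and 254 CPM on day 21. Under upACSS2 the levels were 268, 281 and 268 CPM (PBS) and 265, 279 and 296 CPM (tau) on day 9, and 233, 271 and 290.0 CPM and 281, 264 and 232 CPM on day 21. The low values of day 21 were 3 vector libraries, and the other 9 libraries lay in or near the day 9 range. The fit gave a log2 fold change of -0.22 ± 0.09 (SE), 0.859-fold, adjusted p = 0.0262. The call was lost without vector PBS day 21 replicate 2, at -0.19 and an adjusted p of 0.0513. Of the single arms, vector PBS alone was called, at -0.48 (adjusted p = 0.0226), and this was lost without vector PBS day 9 replicate 2 (-0.48, adjusted p = 0.0502), day 21 replicate 2 (-0.36, adjusted p = 0.110) or day 21 replicate 3 (-0.37, adjusted p = 0.0960), and with only the 2 groups in the fit (-0.49, adjusted p = 0.0761).

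Grin2b had the largest fall. It was at 629.7, 601 and 642 CPM in vector PBS and 594, 693 and 523 CPM in vector tau neurons on day 9, and at 293, 246 and 167 CPM and 297, 200.3 and 312 CPM on day 21. In neurons with upACSS2 it stood at 606, 575 and 759.7 CPM (PBS) and 557, 542 and 629.8 CPM (tau) on day 9, and at 271, 253 and 424 CPM and 431, 346 and 272 CPM on day 21. The highest day 21 library, at 431 CPM, lay below the lowest day 9 library, at 523 CPM. Grin2b averaged 293 ± 78.8 CPM on day 21 against 613 ± 65.8 CPM on day 9 (SD, n = 12 and 12), a log2 fold change of -1.08 ± 0.11 (SE), 0.473-fold, adjusted p = 1.15e-08. Each arm was called, at -1.41 (vector PBS), -1.16 (vector tau), -1.03 (upACSS2 PBS) and -0.72 (upACSS2 tau).

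Grin2a, the subunit gene known to take over from Grin2b in the maturing forebrain, rose less and with overlap. It was at 126, 114 and 129.9 CPM in vector PBS and 121, 124 and 111 CPM in vector tau neurons on day 9, and at 174, 119 and 90.6 CPM and 159.8, 87.5 and 190.0 CPM on day 21. With upACSS2 the values were 109.8, 114 and 142 CPM (PBS) and 122, 119 and 133 CPM (tau) on day 9, and 142, 118 and 210.5 CPM and 233, 195 and 155 CPM on day 21. Day 21 libraries lay both below and above the day 9 range, and all 3 upACSS2 tau libraries of day 21 lay above it. The mean over arms was a log2 fold change of 0.34 ± 0.12 (SE), 1.26-fold, adjusted p = 0.0166. Only upACSS2 tau was called by itself, at 0.64 (adjusted p = 0.0329), and it was lost in 5 of 6 fits that left out 1 library, at log2 fold changes of 0.48 to 0.69 and adjusted p-values of up to 0.140. The fit that kept it was that without upACSS2 tau day 21 replicate 3.

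Grin2d, a subunit of slow NMDA receptors, fell in all 4 arms. It was at 22.0, 21.2 and 22.3 CPM in vector PBS and 23.7, 21.4 and 22.5 CPM in vector tau neurons on day 9, and at 13.5, 8.43 and 9.83 CPM and 16.8, 10.6 and 16.2 CPM on day 21. Neurons with upACSS2 held it at 25.6, 25.5 and 23.1 CPM (PBS) and 24.0, 24.8 and 25.2 CPM (tau) on day 9, and at 13.4, 17.9 and 11.9 CPM and 20.7, 16.7 and 11.8 CPM on day 21. The days did not overlap, although the upACSS2 tau library at 20.7 CPM on day 21 came within 1 CPM of the lowest day 9 libraries. The fit gave a log2 fold change of -0.76 ± 0.10 (SE), 0.589-fold, adjusted p = 3.24e-07. By arm the log2 fold changes were -1.05 (vector PBS), -0.63 (vector tau), -0.78 (upACSS2 PBS) and -0.59 (upACSS2 tau), and the last was lost without upACSS2 tau day 21 replicate 3 (-0.41, adjusted p = 0.0749). Kdelr1, which overlaps Grin2d on the other strand, was at 66.0 to 87.1 CPM in these libraries, and the strand setting of the authors' counting is not given in the sources used here, so reads of the 2 genes may be shared.

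Grin2c was low throughout, at 7.17 to 9.66 CPM on day 9 and 5.08 to 10.4 CPM on day 21, and did not pass (log2 fold change 0.05 ± 0.09 (SE), adjusted p = 0.611). Grin3a, whose subunit makes NMDA receptors that pass little calcium, had the largest rise. It was at 32.2, 26.0 and 29.6 CPM in vector PBS and 28.9, 28.5 and 29.1 CPM in vector tau neurons on day 9, and at 54.0, 67.6 and 48.6 CPM and 53.5, 79.5 and 51.1 CPM on day 21. The levels with upACSS2 were 34.2, 28.8 and 36.4 CPM (PBS) and 32.1, 35.5 and 35.0 CPM (tau) on day 9, and 90.1, 69.0 and 87.7 CPM and 71.6, 69.4 and 67.3 CPM on day 21. Every day 21 library lay above every day 9 library, with the 3 upACSS2 PBS and 3 upACSS2 tau libraries all at 67.3 CPM or more. The means were 67.5 ± 13.8 CPM on day 21 against 31.4 ± 3.35 CPM on day 9 (SD, n = 12 and 12), a log2 fold change of 1.09 ± 0.07 (SE), 2.13-fold, adjusted p = 2.52e-11, and the 4 arms were called at 0.95 to 1.31.

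By arm, 6 members were called in vector PBS (background 57.7%), 5 in vector tau (52.6%), 5 in upACSS2 PBS (54.3%) and 7 in upACSS2 tau neurons (53.6%). Whether the day effect differed by virus was tested as an interaction over PBS and tau, added after the data were seen. An unadjusted p under 0.05 was seen for 3 members (Gria1, Gria3 and Gria4), beside 11.5% of all genes, and no member passed (background 0.128%). The adjusted p-values ran from 0.279 to 0.789. DESeq2 and limma voom called none either. All 10 estimates were positive, at log2 values of 0.14 to 0.41, which means a day 21 to day 9 difference that was higher with upACSS2. Leaving out vector PBS day 21 replicate 1 brought 1 member past the threshold.

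The fall of Grin2b and the smaller rise of Grin2a gave a Grin2a to Grin2b ratio that separated the days completely. The ratio of counts was 0.179 to 0.220 on day 9 (median 0.201, n = 12) and 0.437 to 0.609 on day 21 (median 0.539, n = 12). In vector PBS neurons it was 0.199, 0.190 and 0.202 on day 9 and 0.592, 0.484 and 0.541 on day 21, and in vector tau neurons 0.204, 0.179 and 0.212 and then 0.538, 0.437 and 0.609. In upACSS2 PBS neurons it was 0.181, 0.199 and 0.187 on day 9 and 0.523, 0.467 and 0.497 on day 21, and in upACSS2 tau neurons 0.219, 0.220 and 0.211 and then 0.540, 0.565 and 0.569. Each arm showed no overlap between the days, and its ratio rose 2.72-fold, 2.65-fold, 2.62-fold and 2.57-fold, in the order just given. The mean log2 difference was 1.40, a 2.64-fold rise, with p = 1.25e-05 in a two-sided exact permutation test within arms (160000 arrangements), which is the smallest p it can give, and 0.0001 after adjustment over 8 tests of the ratio. Within the groups of each of 6 sets of libraries the log2 ratio varied less than either gene did, with an SD of 0.15 against 0.46 for Grin2a and 0.38 for Grin2b on day 21. Within the day 21 groups the log2 deviations of Grin2a and Grin2b from their group means had a Pearson correlation of 0.954 over 12 libraries, which share their depth and scaling, so a library low in 1 gene was low in the other.

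**Figure D3:**
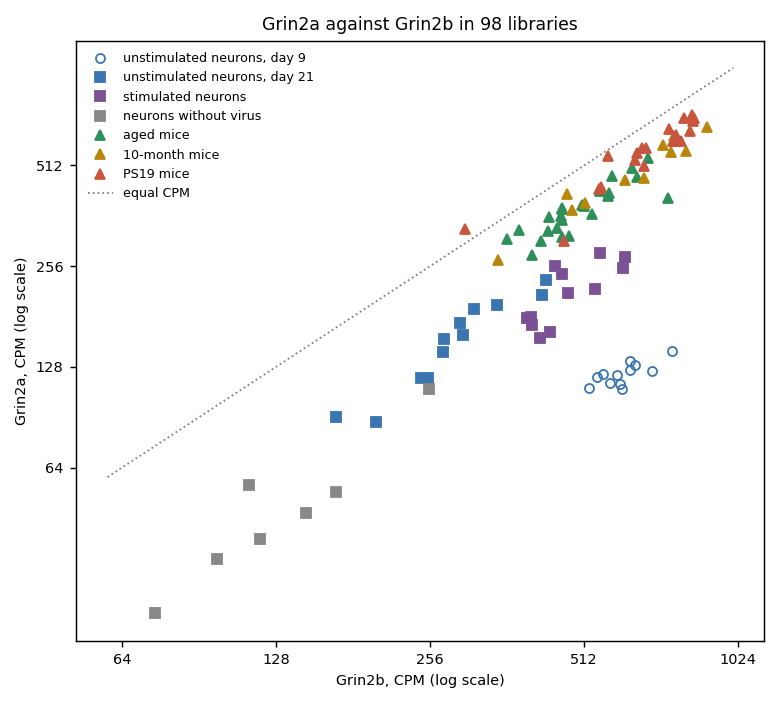
Grin2a against Grin2b in each library, both as CPM on log axes, coloured by kind of sample. Day 9 libraries form a cloud at high Grin2b and low Grin2a, day 21 libraries lie at lower Grin2b along a line of higher ratio, and mouse libraries lie at high values of both genes near equal counts.

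The mice had a higher ratio than the neurons. It was 0.547 to 0.862 in aged mice (median 0.757, n = 24), 0.700 to 0.885 in 10-month mice (median 0.768, n = 11) and 0.653 to 1.10 in PS19 mice (median 0.829, n = 20). Stimulated day 21 neurons had 0.370 to 0.569 (median 0.444, n = 12) and day 21 neurons without virus 0.317 to 0.502 (median 0.329, n = 7). Grin2a had more counts than Grin2b in 1 of 55 mouse libraries and in 0 of 43 neuron libraries. Since Grin2b has 1.39 times the merged exon length of Grin2a, the ratio per kilobase was higher: a median of 0.278 on day 9, 0.747 on day 21 and 1.09 over all mice, or 0.330, 0.886 and 1.29 with the longest transcripts. Ordered by mean log2 ratio, 3 neighbouring gaps among the 22 groups exceeded the larger SD of the pair: vector tau to upACSS2 tau on day 9 (0.13), upACSS2 tau on day 9 to PBS neurons without virus (0.71), and upACSS2 tau on day 21 to aged vector mice (0.42). All other neighbours did not differ beyond their spread. Neurons and mice lie in separate tables, so culture, age and table cannot be told apart between them, and no test was made across tables.

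**Figure D4:**
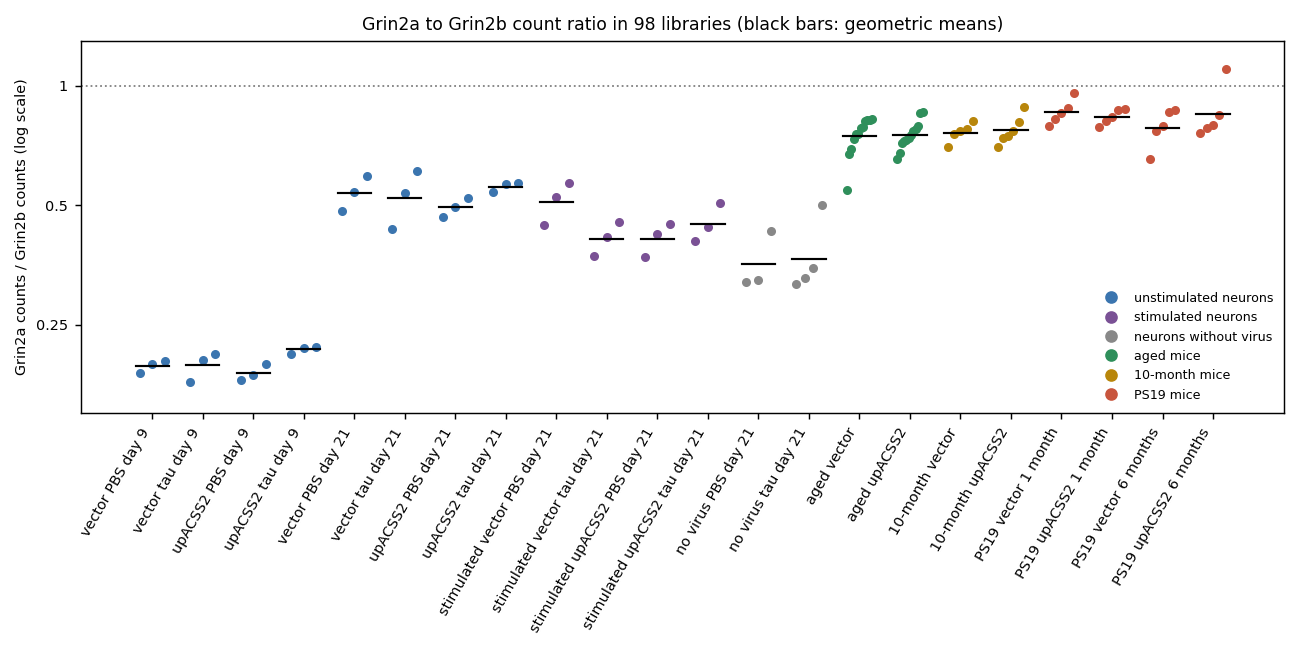
Grin2a to Grin2b count ratio in all 98 libraries on a log axis, by group, with 1 point per library. The 4 day 9 groups lie at 0.179 to 0.220, the 4 day 21 groups without stimulation at 0.437 to 0.609, and the mouse groups at 0.547 to 1.10.

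The ratio did not pass any test of virus, tau or time. With upACSS2 against vector, the log2 difference was 0.01 in aged mice (p = 0.877, 100000 permutations), 0.02 at 10 months (exact permutation p = 0.773), -0.04 in PS19 mice at 1 month (exact p = 0.492) and 0.11 at 6 months (exact p = 0.460). From 1 to 6 months it was -0.13 in PS19 vector mice (exact p = 0.175) and 0.02 in PS19 upACSS2 mice (exact p = 0.929), where dissection differed between the times. Tau against PBS without virus gave 0.05 (exact p = 0.8, smallest possible 0.0286 with 35 arrangements). After adjustment all of these were at 0.698 or more. Among the neurons with virus the ratio was higher with tau than with PBS under upACSS2 by 0.20 on day 9 and by 0.17 on day 21, each without overlap of 3 against 3 libraries and with no test made, and by 0.00 and -0.04 under vector, with overlap. In stimulated neurons the same difference was 0.13 under upACSS2 and -0.31 under vector, both with overlap.

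On day 9, upACSS2 was compared with vector in neurons with PBS and in neurons with tau, from the 12 libraries of that day. In PBS neurons 2 of 10 members were called, both higher, against a background of 10.2% of 14022 genes called in either direction. Libraries did not overlap for 4 members, beside 30.8% of all genes. Gria4 was at 86.0, 91.6 and 95.8 CPM with upACSS2 and 83.0, 79.7 and 80.7 CPM with vector, without overlap. Its means were 91.1 ± 4.90 CPM against 81.1 ± 1.68 CPM (SD, n = 3 and 3), a log2 fold change of 0.16 ± 0.05 (SE), 1.12-fold, adjusted p = 0.0293 by edgeR. Grin1 was at 268, 281 and 268 CPM with upACSS2 and 243, 247 and 245 CPM with vector, also without overlap. Its means were 272 ± 7.49 CPM against 245 ± 1.89 CPM, a log2 fold change of 0.14 ± 0.04 (SE), 1.10-fold, adjusted p = 0.0385 by edgeR. Both calls depended on single libraries: Gria4 kept its call only without upACSS2 PBS replicate 1 and had adjusted p-values of 0.0619 to 0.147 without each of the other 5, and Grin1 lost it without any of the 6, at 0.0624 to 0.168. With the spread taken from all 24 libraries of both days, neither passed. The oligodendrocyte precursor markers moved with the virus here, with 3 of 4 lower and sums of 241 to 267 CPM with upACSS2 and 253 to 297 CPM with vector, and of 5 neuron markers 3 were higher and 1 lower, with sums of 5984 to 6182 CPM against 5465 to 5569 CPM. Their part in the difference was not tested.

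In tau neurons on day 9 no member was called by edgeR (background 0.692%) or by DESeq2 or limma voom. Libraries did not overlap for 3 members, beside 16.8% of all genes. Grin3a alone had an unadjusted p under 0.05, beside 12.6% of all genes. It was at 32.1, 35.5 and 35.0 CPM with upACSS2 and 28.9, 28.5 and 29.1 CPM with vector. The libraries did not overlap, and its log2 fold change was 0.24 ± 0.08 (SE, adjusted p = 0.164). Averaged over PBS and tau, a comparison added after the single ones were seen, Grin3a was at 33.7 ± 2.82 CPM against 29.0 ± 1.99 CPM (SD, n = 6 and 6), with overlap, a log2 fold change of 0.20 ± 0.06 (SE), 1.15-fold, adjusted p = 0.0298 by edgeR (1 member called, background 6.4%). The call was lost in 7 of 12 fits that left out 1 library, at adjusted p-values of up to 0.0917.

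On day 21 the members were mostly higher with upACSS2, and none passed in edgeR. The spread between libraries was larger on that day: the biological coefficient of variation was 0.189, against 0.0420 on day 9. In PBS neurons 9 of 10 estimates were positive (background of calls 0.0137%). Libraries did not overlap for 4 members, beside 17.4% of all genes, and 5 members had an unadjusted p under 0.05, beside 16.6% of all genes. Gria4 was at 150.2, 143 and 132 CPM with upACSS2 and 104, 119 and 98.5 CPM with vector, at log2 fold change 0.40 ± 0.10 (SE, adjusted p = 0.159). Grin3a was at 90.1, 69.0 and 87.7 CPM and 54.0, 67.6 and 48.6 CPM, at 0.53 ± 0.18 (adjusted p = 0.208). Gria1 was at 922, 924 and 985 CPM and 893, 649.8 and 682 CPM, at 0.34 ± 0.15 (adjusted p = 0.284). Each of these 3 genes, and Gria3, had all upACSS2 libraries above all vector libraries. DESeq2 called 1 of the 10 (Gria4, adjusted p = 0.0132) and limma voom none. With the spread taken from all 24 libraries, edgeR called 5: Gria1, Gria3, Gria4, Grin1 and Grin3a. The biological coefficient of variation of that set was 0.135, below that of day 21 alone, because it includes the day 9 libraries. The share of all genes called under these other settings is not given here, so the counts have no background.

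In tau neurons on day 21 all 10 estimates were positive (background of calls 0.0273%). Libraries did not overlap for 3 members, beside 21.7% of all genes, and 2 members had an unadjusted p under 0.05, beside 10.7% of all genes. Gria3 was at 123, 123 and 115 CPM with upACSS2 and 102, 90.5 and 104 CPM with vector, without overlap. Its log2 fold change was 0.30 ± 0.09 (SE), with adjusted p-values of 0.285 by edgeR, 0.0467 by DESeq2 and 0.0258 by limma voom. Averaged over PBS and tau (added later), all 10 members were positive, with a median log2 fold change of 0.32 beside -0.01 over all genes. None passed in edgeR (background 0.642%, adjusted p from 0.0766 to 0.703), and 5 had an unadjusted p under 0.05, beside 18.2% of all genes. DESeq2 called 3 (Gria1, Gria3 and Gria4) and limma voom 3 (Gria3, Gria4 and Grin3a), and their shares of all genes called are not given here. Astrocyte markers differed between the vector libraries of day 21, at 4661 to 20397 CPM with PBS and 3654 to 5808 CPM with tau, and were at 4019 to 6643 CPM and 6115 to 11551 CPM with upACSS2. Neuron markers were at 2991 to 4410 CPM and 3137 to 4337 CPM with vector and at 3866 to 4646 CPM and 4215 to 4683 CPM with upACSS2, and inhibitory neuron markers at 914 to 1271 CPM and 886 to 1059 CPM with vector and at 1281 to 1431 CPM and 1131 to 1513 CPM with upACSS2. The part of these markers in the estimates was not tested.

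**Figure D5:**
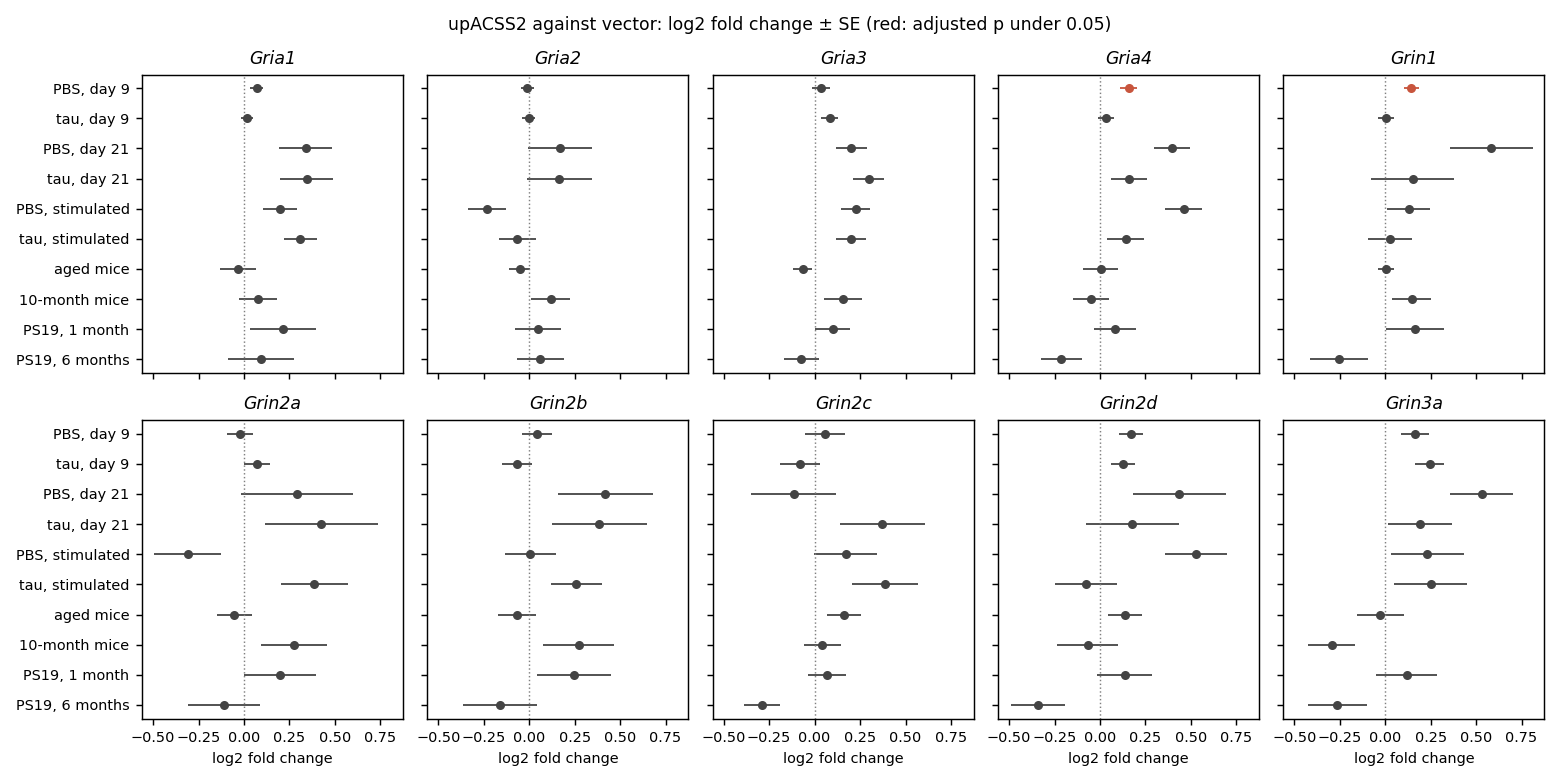
Log2 fold change of upACSS2 against vector for each subunit gene in 10 comparisons of neurons and mice, with bars of 1 standard error and called values in red. On day 21 the 10 genes lie between -0.11 and 0.58 with PBS, 9 of them above 0, and between 0.15 and 0.42 with tau. In aged mice they lie between -0.07 and 0.16.

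In stimulated neurons the comparison of upACSS2 with vector called no member with PBS (background 0.208%) or with tau (background 0.937%). Unadjusted p-values under 0.05 were found for 4 members with PBS, beside 15.9% of all genes, and for 2 with tau, beside 20.4%. Libraries did not overlap for 2 members with PBS, beside 22.7% of all genes, and for 3 with tau, beside 24.7%. Gria4 in PBS neurons was at 161, 178 and 155 CPM with upACSS2 and 117, 130.3 and 111 CPM with vector. The libraries did not overlap, and the log2 fold change was 0.46 ± 0.10 (SE), with adjusted p-values of 0.0865 by edgeR, 0.00684 by DESeq2 and 0.00370 by limma voom. Limma voom also called Gria2, at -0.23 (adjusted p = 0.0482), and Grin3a, at 0.42 (adjusted p = 0.0452). Gria1 in tau neurons was at 1144, 999 and 1046 CPM and 907, 804 and 862 CPM, without overlap, at 0.31 ± 0.09 (edgeR adjusted p = 0.104, DESeq2 0.0357). Averaged over PBS and tau (added later), Gria4 alone was called by edgeR (background 2.64%), at 147 ± 20.2 CPM against 119 ± 12.7 CPM (SD, n = 6 and 6), a log2 fold change of 0.30 ± 0.07 (SE), 1.23-fold, adjusted p = 0.0488, with overlap. It passed in 2 of 12 fits that left out 1 library, those without vector tau replicate 2 or vector PBS replicate 2, and reached an adjusted p of 0.121 in the others. DESeq2 called 3 members (Gria1, Gria3 and Gria4) and limma voom 4 (the same 3 and Grin3a), without the share of all genes called by each. In vector tau neurons the astrocyte markers summed to 3026 to 4752 CPM, below the 7448 to 8422 CPM of upACSS2 tau neurons. Inhibitory neuron markers summed to 915 to 1458 CPM over the vector and 1116 to 1781 CPM over the upACSS2 stimulated neurons, and 1 of 3 was called higher in that average. Their part was not tested. The test of whether the virus effect differed between tau and PBS called no member on day 21 or in stimulated neurons (edgeR background 0%). That held by edgeR, DESeq2 and limma voom. Its unadjusted p was under 0.05 for 0 members on day 21, beside 8.3% of all genes, and for 3 in stimulated neurons, beside 14.3%.

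Tau was compared with PBS within each virus. On day 9 in vector neurons 1 of 10 members was called (background 4.28%) and 3 did not overlap, beside 21% of all genes. Grin1 was at 292, 283 and 261 CPM with tau and 243, 247 and 245 CPM with PBS. No library overlapped, and the means were 279 ± 15.7 CPM against 245 ± 1.89 CPM (SD, n = 3 and 3), a log2 fold change of 0.18 ± 0.04 (SE), 1.13-fold, adjusted p = 0.0233 by edgeR. It was lost without vector tau replicate 1 (adjusted p = 0.133) or replicate 2 (0.108), without vector PBS replicate 1 (0.115), and with only the 2 groups in the fit (0.0514). The oligodendrocyte precursor markers were at 157 to 199 CPM with tau and 253 to 297 CPM with PBS, with 3 of 4 called lower, and the neuron markers at 5760 to 6139 CPM and 5465 to 5569 CPM, with 1 of 5 called higher. Neither sum overlapped, and their part in the difference was not tested. This comparison and that of upACSS2 with vector above share the vector PBS libraries, in which Grin1 was lowest on day 9. In upACSS2 neurons Grin1 was at 265, 279 and 296 CPM with tau and 268, 281 and 268 CPM with PBS, with overlap. No member was called there by edgeR (background 0.349%), DESeq2 or limma voom. An unadjusted p under 0.05 was found for 1 member, beside 9.05% of all genes.

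On day 21 tau called no member in vector or upACSS2 neurons (background 0% in each), and neither DESeq2 nor limma voom called any. Unadjusted p-values under 0.05 numbered 0 in vector neurons, beside 9.3% of all genes, and 1 in upACSS2 neurons, beside 6.36%. In stimulated neurons tau called none in vector (background 3.02%) or upACSS2 neurons (background 0.208%), and none by DESeq2 or limma voom. There 1 member had an unadjusted p under 0.05 with vector, beside 24.3% of all genes, and 3 with upACSS2, beside 14.3%. In the stimulated upACSS2 neurons 4 members did not overlap, beside 23.7% of all genes. Grin2a was at 272, 219 and 279 CPM with tau and 171, 163 and 213 CPM with PBS, at 0.49 ± 0.18 (SE, adjusted p = 0.254). Grin2b was at 616, 538 and 550.5 CPM and 405, 439.7 and 476 CPM, at 0.37 ± 0.14 (adjusted p = 0.266). Gria4 was at 134, 128 and 129 CPM and 161, 178 and 155 CPM, at -0.34 ± 0.10 (adjusted p = 0.176). Gria2 ran from 692 to 788 CPM with tau and from 597 to 683 CPM with PBS. In these libraries Grin2a, Grin2b and Gria2 were thus high with tau and Gria4 was high with PBS, at sizes that did not pass over all genes. The other GluN2 genes, Grin2c and Grin2d, had lower means with tau, with overlap. The excitatory neuron markers summed there to 3849 to 4349 CPM with tau and 2486 to 3101 CPM with PBS, without overlap and with none of 4 called, and their part was not tested. Averaged over the viruses (added later), tau called no member by edgeR on day 9, day 21 or in stimulated neurons. The backgrounds were 1.53%, 0% and 5.37%, and limma voom called 1 member on day 9. Members with an unadjusted p under 0.05 numbered 2, 0 and 2, beside 13.4%, 7.15% and 24.8% of all genes.

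In day 21 neurons without virus 8 of 10 members were lower with tau than with PBS, and none passed in edgeR, where no gene of 16341 did (background 0%). The 7 members with an unadjusted p under 0.05 compare with 13.9% of all genes. Grin2d was at 8.47, 10.0, 12.5 and 11.8 CPM with tau and 28.0, 16.97 and 34.9 CPM with PBS. Grin2b was at 98.05, 119, 113 and 74.2 CPM and 167, 146 and 255 CPM, and Gria1 at 224, 272, 364 and 230.2 CPM and 457, 386 and 805 CPM. None of these 3 genes overlapped between the groups, nor did Gria3, Grin1 and Grin3a, which makes 6 of 10 beside 16.7% of all genes, and PBS replicate 3 was the highest library for 8 of the 10 genes. The log2 fold changes were -1.32 ± 0.26 for Grin2d, -1.01 ± 0.29 for Gria1 and -0.91 ± 0.23 for Grin2b (SE, n = 4 and 3), and the adjusted p-values of the 10 members ran from 0.297 to 0.709. Grin3a and Grin2c were the 2 members with a positive estimate. Grin3a was at 57.5, 57.6, 55.8 and 96.0 CPM with tau and 45.9, 52.1 and 22.6 CPM with PBS, at 0.74 ± 0.32 (SE). Grin2c was at 32.4, 29.6, 14.8 and 34.2 CPM and 25.5, 30.7 and 3.83 CPM, with overlap.

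The other tools and 1 library bear on that comparison. DESeq2 called 299 genes, among them Grin2b (adjusted p = 0.0475) and Grin2d (0.00291), and limma voom with library weights called 951, among them Gria1, Gria3, Grin1, Grin2b and Grin2d. Without PBS replicate 3 the estimates were -0.63 for Gria1, -0.37 for Grin1, -0.39 for Grin2a, -0.63 for Grin2b and -1.05 for Grin2d, with none called. Grin3a was then at 0.44 and Grin2c at -0.03, so that Grin3a alone had a positive estimate. That library had astrocyte markers at 2215 CPM, where the other 2 PBS libraries had 8395 and 9929 CPM and the tau libraries 7207 to 13986 CPM, and oligodendrocyte precursor markers at 90.7 CPM, where the others had 1702 to 3870 CPM. Neuron markers summed to 2391 to 3702 CPM with PBS and 1830 to 2334 CPM with tau. Inhibitory neuron markers summed to 807 to 1604 CPM and 341 to 665 CPM, and neither sum overlapped. Excitatory neuron markers went the other way in the mean, at 1238 CPM with PBS and 1526 CPM with tau. Their libraries overlapped, at 922 to 1827 CPM with PBS and 1411 to 1768 CPM with tau. The part of these markers in the differences was not tested.

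In the hippocampus of mice no member was called in any comparison by edgeR, DESeq2 or limma voom, and no member separated 2 groups without overlap. Few genes of any kind did so between viruses: 0% in aged mice, 0.814% at 10 months, and 0.82% and 2.5% in PS19 mice at 1 and 6 months. Between the times the share was 9.82% in PS19 vector and 3.15% in PS19 upACSS2 mice. Over all genes upACSS2 against vector called 0% in aged mice, in 10-month mice and in PS19 mice after 1 and 6 months. Members with an unadjusted p under 0.05 numbered 0, 1, 0 and 2 in that order, beside 5.58%, 8.83%, 2.92% and 14.1% of all genes. From 1 to 6 months 7.46% of genes were called in PS19 vector mice and 0.0442% in PS19 upACSS2 mice. The test of whether the virus effect differed by time called 0%. Here 2, 0 and 2 members in turn had an unadjusted p under 0.05, beside 25.1%, 13.7% and 12.3% of all genes. Time and dissection cannot be told apart in the upACSS2 mice, nor in the test of virus by time. In aged mice the 10 log2 fold changes ran from -0.07 to 0.16, at adjusted p-values of 0.909 to 0.997, and at 10 months the adjusted p-values ran from 0.548 to 0.923.

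The AMPA receptor genes were as follows in mice, each group given by its lowest, median and highest library. Gria1 was at 720.3, 1034 and 1329.9 CPM with upACSS2 and 772, 1083 and 1428 CPM with vector in aged mice, and at 1139.6, 1450.3 and 1605 CPM and 1083, 1382 and 1512 CPM at 10 months. In PS19 mice it was at 1235, 1374 and 1452 CPM with upACSS2 and 876, 1176 and 1354 CPM with vector at 1 month, and at 964, 1315 and 1597 CPM and 670.0, 1369.5 and 1529 CPM at 6 months. All pairs of groups overlapped, and the lowest single library belonged to the PS19 vector mice at 6 months. Gria2 was at 740.1, 951 and 1107 CPM with upACSS2 and 823, 971 and 1134 CPM with vector in aged mice, and at 796, 938 and 1102 CPM and 676, 875 and 989 CPM at 10 months. Gria3 was at 213, 253 and 296 CPM and 231, 265 and 311 CPM in aged mice, and at 182, 232 and 275 CPM and 179, 221 and 237 CPM at 10 months. Both genes overlapped between virus groups at each age, and over the 20 PS19 libraries Gria2 ran from 707 to 1269.8 CPM (median 979.7) and Gria3 from 185 to 276 CPM (median 238). Gria4 was at 53.5, 58.1 and 69.0 CPM in PS19 vector mice at 1 month and 56.3, 66.4 and 98.9 CPM at 6 months, and at 60.2, 63.5 and 65.7 CPM and 57.9, 60.7 and 71.7 CPM with upACSS2. Its change with time in vector mice had an unadjusted p under 0.05, at 0.29 ± 0.11 (SE, adjusted p = 0.123), and the groups overlapped. Its level ran from 68.8 to 137 CPM over the 24 aged mice and from 41.4 to 65.0 CPM over the 11 mice of 10 months.

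Of the NMDA receptor genes, Grin1 was at 398, 453 and 512 CPM with upACSS2 and 410.5, 441 and 556 CPM with vector in aged mice, and at 414, 506 and 590.2 CPM and 383, 485 and 525 CPM at 10 months. Grin2a was at 275, 359 and 502 CPM and 312, 373 and 538 CPM in aged mice, and at 395, 563 and 668 CPM and 267, 464 and 625 CPM at 10 months. Grin2b was at 361, 492 and 650.5 CPM and 436, 463 and 746 CPM in aged mice, and at 474, 742 and 891 CPM and 347, 614 and 767 CPM at 10 months. All of these groups overlapped, Grin1 ran from 255 to 649 CPM over the 20 PS19 libraries (median 524), and the lowest 10-month libraries of Grin2a and Grin2b were in the vector group. In PS19 mice Grin2a was at 575, 649 and 695 CPM with upACSS2 and 434, 547 and 707 CPM with vector at 1 month, and at 329.6, 509 and 711 CPM and 305, 606 and 724 CPM at 6 months. Grin2b was at 663, 773 and 834 CPM and 547, 645 and 804 CPM at 1 month, and at 299, 669.6 and 839 CPM and 467, 764 and 831 CPM at 6 months. Both genes spread widely at 6 months in either group, and they varied together: their deviations from the group means had correlations of 0.844 (aged, n = 24), 0.969 (10 months, n = 11) and 0.912 (PS19, n = 20), as a description of libraries that share depth and scaling.

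Besides Gria4, NMDA receptor genes of low level had an unadjusted p under 0.05 in some comparisons. Grin3a at 10 months was at 23.2, 26.5 and 27.6 CPM with upACSS2 and 24.6, 31.9 and 43.5 CPM with vector, at -0.30 ± 0.13 (SE, adjusted p = 0.548). In PS19 mice at 6 months Grin2c was at 36.8, 45.7 and 50.4 CPM with upACSS2 and 41.8, 57.7 and 61.6 CPM with vector, at -0.29 ± 0.10 (adjusted p = 0.243). Grin2d was there at 6.12, 10.7 and 12.4 CPM and 11.7, 12.1 and 16.5 CPM, at -0.34 ± 0.15 (adjusted p = 0.319). Groups overlapped for all 3 genes. Grin3a in PS19 vector mice was at 28.7, 32.6 and 41.3 CPM at 1 month and 31.3, 49.4 and 53.5 CPM at 6 months, at 0.40 ± 0.17 (adjusted p = 0.141). In aged mice Grin2c was at 39.4, 46.0 and 58.0 CPM with upACSS2 and 24.4, 43.4 and 51.1 CPM with vector, Grin2d at 8.93, 10.8 and 12.8 CPM and 5.98, 10.3 and 13 CPM, and Grin3a at 37.2, 47.6 and 62.7 CPM and 31.7, 49.3 and 86.0 CPM. In PS19 mice 10 of 10 estimates of upACSS2 against vector were positive at 1 month (log2 0.05 to 0.24) and 8 of 10 were negative at 6 months (-0.34 to 0.09), and these counts carry no test of their own. At 1 month the virus groups also differed in dissection. Markers of tissue next to the hippocampus differed between mice: choroid plexus markers summed to 79.5 to 435 CPM in PS19 vector and 124 to 5840 CPM in PS19 upACSS2 mice at 6 months, and thalamus markers reached 392 CPM in PS19 upACSS2 mice at 1 month against at most 109 CPM in their vector group. Their part was not tested.

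Other genes of the glutamate receptor pathway were followed as 4 lists through the day 21 to day 9 comparison over the 4 arms, where 76.4% of all genes were called. Of 14 AMPA receptor auxiliary subunits, which steer receptor traffic and gating, 3 were higher and 9 lower (median log2 fold change -0.30, against 0.04 over all genes), from Cacng3 at 1.62 and Cacng7 at 0.34 to Shisa6 at -1.22 and Cacng4 at -0.81. Of 10 kainate receptor, delta receptor and related genes 4 were higher and 3 lower (median 0.25), with Neto1 at 0.69, and Neto2 at -0.66 and Grik4 at -0.41. Of 7 metabotropic glutamate receptor genes, which signal through G proteins, 2 were higher and 5 lower (median -0.87). Grm2 was at 1.06 and Grm8 at 0.60, and Grm7 at -1.26 and Grm5 at -1.05. Of 14 receptor scaffolds and kinases 4 were higher and 4 lower (median -0.03), with Dlg1 at 0.96 and Camk2a, the kinase of synaptic plasticity, at 0.47, and Grip1 at -0.63 and Camk2b at -0.60. In all, 12 of 14, 7 of 10, 7 of 7 and 8 of 14 genes of the 4 lists were called.

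In the day 9 comparison of upACSS2 with vector in PBS neurons (background 10.2%), 3 of the auxiliary subunits were called, all higher, with Cacng3 at 0.38 and Shisa7 at 0.36 the highest, and 3 kainate and related genes, all higher, with Grik1 at 0.26 and Neto1 at 0.22. Of the metabotropic receptors 2 were higher, Grm5 among them at 0.15, and of the scaffolds and kinases 1 was higher (Camk2a, at 0.14) and 1 lower. With tau against PBS in vector neurons on day 9 (background 4.28%), Frrs1l at 0.17, Grik4 at 0.17, Camk2a at 0.23 and Dlg4 at 0.15 were higher and Grm3, a receptor gene also used by astrocytes, was lower at -0.58. In the averages over PBS and tau, upACSS2 on day 9 gave 1 auxiliary subunit higher (Shisa7, at 0.19), 3 kainate and related genes higher (Neto1 at 0.21 and Grik1 at 0.17 among them), 1 metabotropic receptor higher and 1 scaffold or kinase lower, and gave in stimulated neurons Grik1 at 0.45, Neto1 at 0.38 and Cacng7 at -0.30. Grik1 and Neto1, a kainate receptor subunit and its partner, were thus called higher with upACSS2 in each of the 3 comparisons with virus named here. Those of day 9 share libraries, and the 3 are named because a member passed in them. With tau on day 9, upACSS2 called 0 of the kainate and related genes. On day 21 it called 0 with PBS, with tau and in their average, and in mice 0. In stimulated neurons it called 1 higher with PBS and 1 with tau.

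Across the 22 group means of log2 CPM, 12681 genes were ranked by Pearson correlation with each member, as a description over tables that were scaled separately and in which cultures and tissue form 2 clouds. Gria1 was most like Slc7a14 (r = 0.978) and Dlgap2, a scaffold gene of the postsynaptic density (0.968). Gria2 was most like Zc3h12b (0.974) and the calcium channel gene Cacna1e (0.971), and Grin1 like Zc3h12b (0.972) and Adarb1 (0.971), an RNA editing enzyme. The pattern of Gria3 was nearest to Rab27b (0.986) and Dbpht2 (0.986), and that of Gria4 to Cntnap4 (0.965), a gene of interneuron synapses, and Lgi2 (0.944). Grin2a stood nearest to Nebl (0.988) and Wipf3 (0.987), and Grin2b nearest to the anchoring protein gene Akap6 (0.972) and Fry (0.968). For Grin2c the nearest were Trf (0.987), which encodes transferrin, and Slco2b1 (0.985). Grin2d and Grin3a had no match as close, with Slc16a14 (0.921) and Ubfd1 (0.911) for Grin2d and Tmem163 (0.926) and Elmo1 (0.920) for Grin3a. Among the members themselves the highest correlations were Gria2 with Grin1 (0.949) and Gria2 with Grin2a (0.938), and the lowest was Gria4 with Grin2c (-0.754).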

How the data were processed

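The authors deposited gene counts, 1 column per library, in 6 tables. Per the submitters' processing notes, mm10, STAR, featureCounts, HTSeq and DESeq2 were used; their roles, versions, strand setting and annotation are not given in the sources used here. Per the labels' protocols, RNA was purified with Trizol and a column kit, and an NEB kit was used for the libraries. The table of neurons without virus has a row with no gene name (6.13% to 8.74% of counts), which was left out. Total counts per library ran from 14603730 to 33960722 (unstimulated neurons), 18804544 to 39985460 (stimulated), 5683314 to 29890248 (no virus), 11436140 to 28161314 (aged), 5075099 to 10839489 (10 months) and 6910945 to 33259982 (PS19).

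Counts were tested with the quasi-likelihood F test of edgeR 4.0.16 in R 4.3.3, two-sided, with TMM scaling, the default filter on low counts by group, and Benjamini-Hochberg adjustment over all genes tested (threshold 0.05). Day comparisons used all 24 unstimulated libraries, comparisons within a day the 12 of that day, and others their table. There were 27 planned comparisons, and 7 were added after seeing the data: the averages over 2 arms and the test of virus by day. CPM and log2 CPM (prior count 2) use TMM-scaled library sizes. The Grin2a to Grin2b ratio uses counts plus 0.5 and was tested by permutation of libraries. Alternatives were DESeq2 1.42.0, limma 3.58.1 (voom with library weights), RLE scaling, no filter, other sets of libraries, a replicate block and leaving out each library, except in aged mice. On simulated counts for 14863 genes, the day comparison recovered 98.5% of 1.5-fold changes, and the day 21 comparison of viruses 14.7% of 1.5-fold, 66.7% of 2-fold and 96.8% of 3-fold changes. Counts of all 242 library pairs inside groups differed by more than sampling noise (lowest chi-square 2.32 per gene). Replicate numbers paired the libraries in 3 comparisons, where each pair's deviations from the group means had a correlation over 0.1: upACSS2 against vector with tau in stimulated neurons (0.111 to 0.359), tau against PBS with vector in stimulated neurons (0.123 to 0.326) and tau against PBS without virus (0.220 to 0.394). The numbers come from the labels, and the block changed no call there.

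The members, the 4 pathway lists and the marker lists were chosen with earlier results of these data known. Genes named are all 10 members, at most the 2 highest and 2 lowest called genes of each pathway list in the day comparison and in comparisons where a member passed, and the 2 genes most correlated with each member. A few genes of the pathway lists are counted in the lists but not reported here by name. Promoter windows are RefSeq sequences of GRCm38.p6, with the same build as mm10. Protein sequences were not used here.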

Additional observations from a re-analysis of the deposited data

Results flagged for a closer look

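Each member and the Grin2a to Grin2b ratio were checked in the 7 groups of 4 to 10 libraries, 77 checks in all, for a highest or lowest library whose gap to the nearest other is large for the range of the group (Dixon's criterion). Chance marks about 1 in 20 groups, so 3 marks are about the number chance gives.

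Grin2d was at 6.12 CPM in PS19 upACSS2 6 months replicate 3, where the other 4 mice had 10.5 to 12.4 CPM, a gap of 0.764 of the range against a critical value of 0.710. The same mouse had the Grin2a to Grin2b ratio of 1.10, the only mouse library above 1, where the others had 0.761 to 0.847 (0.711 against 0.710). Without it the log2 difference of the ratio between upACSS2 and vector at 6 months was 0.02 in place of 0.11.

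Grin3a was at 96.0 CPM in tau replicate 4 of the neurons without virus, where the other 3 tau libraries had 55.8 to 57.6 CPM (0.943 against 0.829).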

How the results depend on the processing

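No called estimate of a member changed its direction under any setting run (35 calls), while 90 of 305 estimates that were not called changed sign under at least 1 setting, among them Grin2c with tau without virus. Of 35 calls of members, all held under DESeq2, limma voom and no filter on low counts, and 34 under RLE scaling. Of 348 fits that left out 1 library, 302 kept the call and 46 lost it. All 82 values of the ratio without 1 library kept their side of the threshold. Some differences that had not passed changed sign. With upACSS2 at 10 months 0.02 went as low as -0.02. Over time in PS19 upACSS2 mice 0.02 went to -0.07, and with tau without virus 0.05 went to -0.10.

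Counts of called members that moved by over 1.5 times, or to or from 0, were as follows. For upACSS2 against vector on day 9 with PBS (2 called), the replicate block gave 1, all 24 libraries 0 and leaving out 1 library 0 to 1; with tau (0), no filter gave 1. For tau against PBS on day 9 in vector neurons (1), all 24 libraries and only the 2 groups gave 0 and leaving out 1 library 0 to 1; in upACSS2 neurons (0), no filter gave 1. For upACSS2 on day 21 with PBS (0), DESeq2 gave 1 and all 24 libraries 5, and with tau (0) DESeq2, limma voom and all 24 libraries gave 1 each. In stimulated neurons upACSS2 with PBS (0) gave 1 with the replicate block, 1 with DESeq2 and 3 with limma voom, and with tau (0) 1 with DESeq2, and tau in upACSS2 neurons (0) gave 2 with the replicate block (Gria4 and Grin2a). Tau without virus (0) gave 2 with DESeq2 and 5 with limma voom. Of the averages added later, upACSS2 on day 9 (1) gave 0 with all 24 libraries and 0 to 1 on leaving out 1 library. Tau on day 9 (0) gave 2 without a filter, 1 with limma voom and 0 to 1 on leaving out 1 library. For upACSS2 on day 21 (0), DESeq2 gave 3, limma voom 3 and all 24 libraries 4. For upACSS2 in stimulated neurons (1), RLE scaling gave 0, DESeq2 3, limma voom 4 and leaving out 1 library 0 to 1. Leaving out 1 library gave 0 to 1 for tau in stimulated neurons (0) and for the added test of virus by day (0). For day 21 against day 9, leaving out 1 library gave 7 to 8 over the 4 arms (7 called), 5 to 7 in vector PBS (6), 5 to 6 in vector tau (5) and 5 to 6 in upACSS2 tau (7). The causes were not tested. Apart from tau without virus, the share of all genes called under each other setting is not given here. In these unpaired comparisons the libraries share only a number, and the block changed no other count of calls. On simulated counts the day 21 comparison of viruses recovered 14.7% of 1.5-fold changes; no simulation was made for the neurons without virus or the mice.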
